A study of Mus musculus with 8 samples.

Results

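Epithelial-mesenchymal transition (EMT) is the loss of epithelial junctions and polarity in favour of a motile, mesenchymal state, and it is driven by a small set of transcription factors. The 9 genes described here encode such factors: the zinc finger repressors Snai1 and Snai2, the basic helix-loop-helix (bHLH) factors Twist1 and Twist2, the zinc finger homeobox repressors Zeb1 and Zeb2, the forkhead factor Foxc2, the paired-related homeobox factor Prrx1, and the E protein Tcf4. They were taken by gene name from the array, where 12 of 39429 probes belong to them: Zeb2, Prrx1 and Tcf4 have 2 probes each and the other 6 genes 1. All 9 were bright enough to be tested, among 25552 genes tested in all.

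The tumours were ovarian tumours that arose spontaneously in female mice of the strain C57BL/6JTgMISIIR-TAg, in which the promoter of MISIIR (Amhr2), the receptor of anti-Muellerian hormone, drives the SV40 large T antigen. All 8 mice therefore carried the transgene and none was given a drug. The Nedd9-WT group held 4 mice wild type for Nedd9, the gene of a focal adhesion scaffold protein, and the Nedd9-null group 4 mice null for it. The ages of the mice and the extent of the null deletion are not given in the sources used here. Each tumour was hybridised to 1 single-colour Agilent array, and the small number of arrays limits the precision.

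SNAI, ZEB and TWIST proteins bind E-boxes, short DNA elements of the form CANNTG. SNAI and ZEB factors use them to silence E-cadherin (Cdh1) and other junction genes, and TWIST factors bind as dimers with E proteins such as TCF4. In an intact ovary and its tumours the same factors are also present in stroma, endothelium and leukocytes. In bulk tumour RNA, fewer cells of a type and less RNA per cell cannot be told apart. The study's title links NEDD9 to a mesenchymal signature; the comparison here asks whether these regulators of the mesenchymal state differed with Nedd9 genotype.

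A level is given as the log2 of the processed signal minus the log2 of that array's 75th percentile, so that 0 means a signal equal to the percentile; levels of different probes are not comparable with each other. Group values are mean ± SD with n = 4 mice, and a positive difference means a higher level in the Nedd9-null group, with its standard error (SE) from limma across all 25552 genes. The targeted gene Nedd9 differed by -4.51 (SE 0.44, limma adjusted p = 0.0281), with all 4 Nedd9-null values below all Nedd9-WT values. The tumour labelled Nedd9-null replicate 1 stood apart from its group: over all genes it correlated at 0.886 to 0.920 with the other Nedd9-null arrays and at 0.938 to 0.973 with the Nedd9-WT arrays. Its Nedd9 level was -2.01, with the other Nedd9-null tumours at -4.03 to -3.39 and Nedd9-WT at 0.84 to 1.85. Member values are therefore given with and without it. It was singled out from these same data, and leaving out the array most like the other genotype widens the separation. Calls and p-values without it are therefore a description and not a test of genotype. The genotypes were run on separate slides, so slide and genotype cannot be told apart. Of the 14 granulosa and steroidogenic markers fixed for the labelled tissue, 13 were tested, and all 13 were well above background on every Nedd9-WT array and 9 on every Nedd9-null array. In the Nedd9-null group, Cyp11a1 and Hsd3b1 cleared background on 2 of 4 arrays, and Amh and Fshr on 1 of 4.

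The probes whose values carry the largest differences are shown by their first 30 of 60 bases, as designed on the array, with their mm9 positions. Whether a probe lies in a coding exon or a UTR was not assigned here. The 2 Prrx1 probes are shown because the array assigns them to different transcript variants (3 and 2, in the order given), and the 2 Zeb2 probes because they measure the same gene independently.
Twist1, chr12:34644411-34644470, plus strand: atggtaacaatcagaggaattttaacacct
Snai2, chr16:14709361-14709420, plus strand: gtgaggtacggttaatagccacgcctatat
Zeb2 probe 1, chr2:44840038-44840097, minus strand: tacgtgggggaaaatatatgtgaaagcaat
Zeb2 probe 2, chr2:44842774-44842833, minus strand: ctgtattttcgactgaaaattccactttct
Prrx1 probe 1, chr1:165185408-165185467, minus strand: tcaagctagtacctcacatgagatattcat
Prrx1 probe 2, chr1:165175375-165175434, minus strand: cacgtgggaggttaaattaaaccagaagta

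The EMT factors had differences of both signs, 4 positive and 5 negative. Twist1, Snai2 and Prrx1 had positive differences of 4.45, 1.24 and 1.87, and Zeb2, Snai1 and Tcf4 negative ones of -2.67, -0.98 and -0.82. Zeb1, Twist2 and Foxc2 differed by 0.13, -0.37 and -0.18. With all 8 tumours, 0 of the 9 members passed an adjusted p of 0.05 by limma, where 0.0665% of all genes did (0.0587% higher and 0.00783% lower, 17 genes). At an unadjusted p under 0.05 there were 3 members, Twist1 higher and Snai1 and Zeb2 lower, beside 23.9% of all genes (13.1% higher and 10.8% lower). In 0 of the 9 were the 4 values of one genotype clear of those of the other, against 12.7% of all genes (7.17% higher and 5.58% lower). The median difference of the 9 was -0.18, beside 0.029 over all genes.

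These calls changed when Nedd9-null replicate 1 was left out. Without it, Twist1 and Snai2 were higher and Zeb2 was lower in Nedd9-null tumours past the threshold, 3 of 9 members, where 18.7% of all genes passed (10.3% higher and 8.36% lower). The genotypes then did not overlap in the same 3 members, beside 34.4% of all genes (16.4% higher and 18.1% lower). The median of the 9 was then -0.52, beside -0.072 over all genes. The number of genes passing also depended on other arrays: leaving out Nedd9-WT replicate 1 gave 42, leaving out Nedd9-null replicate 4 gave 2, and leaving out any 1 of the remaining 5 gave 0.

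**Figure D1:**
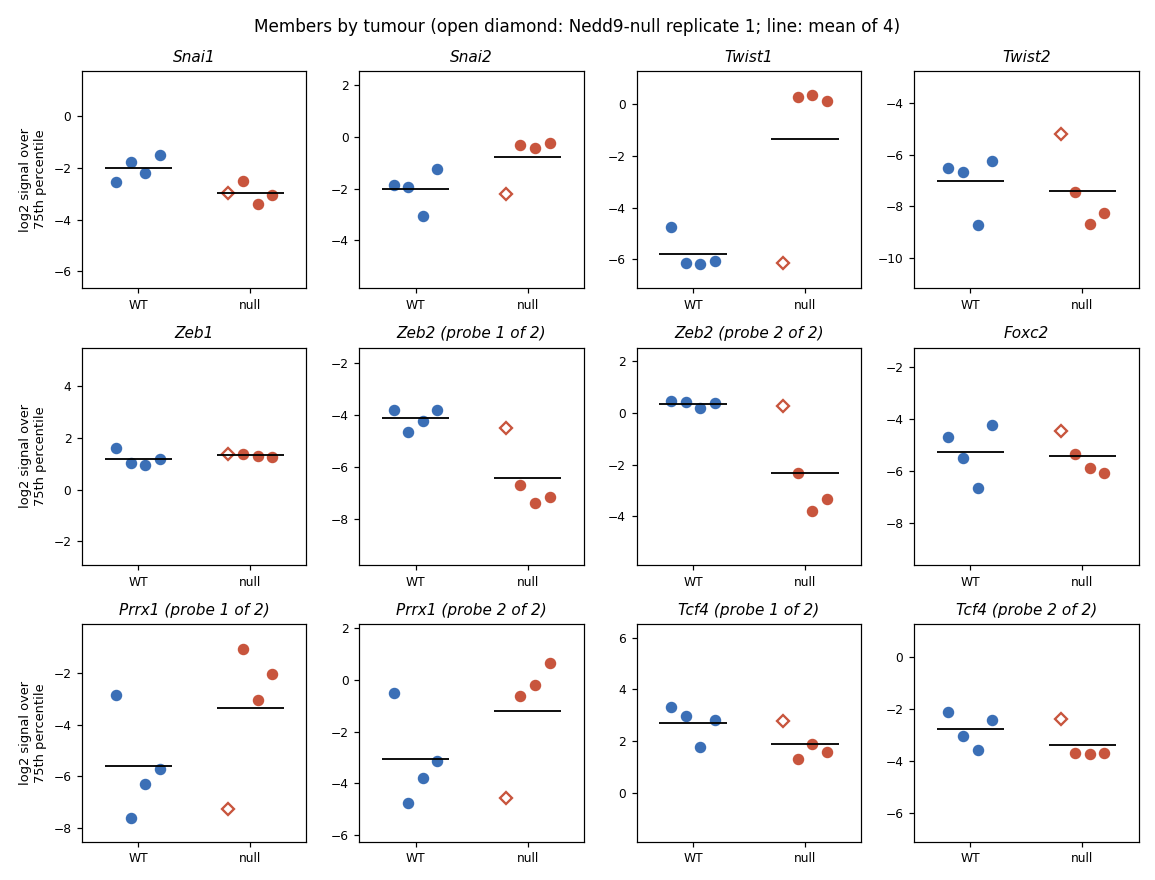
Log2 signal over the 75th percentile of the array (y axis, the same span of 8.4 units in every panel) for each of the 12 probes, with Nedd9-WT tumours on the left and Nedd9-null tumours on the right; points are single tumours, the open diamond is Nedd9-null replicate 1 and the line is the mean of 4. In Twist1, Snai2 and Zeb2 the diamond sits among the Nedd9-WT points and the other 3 Nedd9-null tumours lie together away from them.

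Twist1, a bHLH factor of mesoderm and neural crest, had the widest separation. The 4 Nedd9-WT tumours had -4.77, -6.13, -6.19 and -6.06. Of the Nedd9-null tumours, replicate 1 had -6.13 and replicates 2 to 4 had 0.29, 0.37 and 0.12. The last 3 lay within 0.24 of each other and far above every other tumour, whereas replicate 1 was level with Nedd9-WT. In processed signal, these were 34.4 in Nedd9-null replicate 1, 4212, 4176 and 3872 in replicates 2 to 4, and 40.0 to 105 in Nedd9-WT, and the probe cleared background on every array. The group means were -1.34 ± 3.20 in Nedd9-null and -5.79 ± 0.68 in Nedd9-WT, a difference of 4.45 (SE 1.44, limma adjusted p = 0.129), or 21.8-fold. Without Nedd9-null replicate 1, Twist1 was higher by 6.05 (SE 0.37, limma adjusted p = 0.000296), or 66.1-fold. Both folds are taken against Nedd9-WT signals of 40.0 to 105. With another background correction the difference over all tumours was 3.66.

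Twist2, its paralog, was dim. It had -5.22, -7.46, -8.69 and -8.27 in Nedd9-null and -6.52, -6.69, -8.71 and -6.24 in the Nedd9-WT group. The probe cleared background on 1 of 4 arrays of the Nedd9-null group (replicate 1) and on 3 of 4 of the Nedd9-WT group (all but replicate 3), so the groups overlapped near background. The difference was -0.37 (SE 0.85, limma adjusted p = 0.828), and its sign turned when Nedd9-null replicate 3 was left out (0.055).

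Snai2, which encodes the repressor SLUG, had -2.19, -0.31, -0.44 and -0.22 in Nedd9-null replicates 1 to 4. Nedd9-WT tumours had -1.86, -1.94, -3.07 and -1.25. As in Twist1, Nedd9-null replicates 2 to 4 were above every Nedd9-WT tumour and replicate 1 was within their range. Without replicate 1, 16.4% of all genes were likewise clear of Nedd9-WT in that direction. The difference was 1.24 (SE 0.54, limma adjusted p = 0.213), or 2.36-fold, and without Nedd9-null replicate 1 Snai2 was higher by 1.71 (SE 0.40, limma adjusted p = 0.0272), or 3.26-fold.

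Snai1, which encodes the founding SNAIL repressor, went the other way. It had -2.96, -2.51, -3.40 and -3.06 in Nedd9-null and -2.55, -1.78, -2.20 and -1.49 in the Nedd9-WT group. The groups overlapped through 1 pair of values, since Nedd9-null replicate 2 (-2.51) lay just above Nedd9-WT replicate 1 (-2.55); Nedd9-null replicate 1 was inside its own group. The means were -2.98 ± 0.37 and -2.01 ± 0.47, a difference of -0.98 (SE 0.29, limma adjusted p = 0.113), and without Nedd9-null replicate 1 it was -0.99 (SE 0.32, limma adjusted p = 0.0789).

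Zeb2, which encodes SIP1, was lower in the same 3 tumours on both probes. On probe 2, which stands for the gene, the Nedd9-WT tumours had 0.44, 0.42, 0.19 and 0.38 and Nedd9-null replicates 1 to 4 had 0.25, -2.33, -3.80 and -3.34. Nedd9-null replicate 1 was again within the Nedd9-WT range and the other 3 were far below it. In processed signal this was 233 to 685 in Nedd9-null replicates 2 to 4, against 2867 in replicate 1 and 3344 to 4260 in Nedd9-WT. The difference was -2.67 (SE 0.80, limma adjusted p = 0.116), and without Nedd9-null replicate 1 Zeb2 was lower by 3.52 on the log2 scale (-3.52, SE 0.34, limma adjusted p = 0.000845), or 11.5-fold. Probe 1 gave -4.51, -6.70, -7.40 and -7.17 in Nedd9-null and -3.79, -4.67, -4.24 and -3.79 in the Nedd9-WT group. Its difference was -2.32 (SE 0.62), and -2.96 (SE 0.29) without Nedd9-null replicate 1, so the probes gave the same pattern.

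Zeb1 varied least of the members. It had 1.36, 1.36, 1.30 and 1.26 in Nedd9-null tumours, which lay within 0.11 of each other, and 1.62, 1.03, 0.96 and 1.17 in Nedd9-WT. The Nedd9-null values fell inside the Nedd9-WT range, replicate 1 included. The difference was 0.13 (SE 0.18, limma adjusted p = 0.711), and it took the opposite sign (-0.064) when arrays were scaled to their median.

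Prrx1, a homeobox factor of limb and craniofacial mesenchyme, was uneven in both genotypes. Probe 2 had -4.57, -0.63, -0.20 and 0.65 in Nedd9-null and -0.53, -4.76, -3.81 and -3.13 in the Nedd9-WT group. Nedd9-WT replicate 1 was as high as the high Nedd9-null tumours, and Nedd9-null replicate 1 as low as the low Nedd9-WT tumours. The probe assigned to the other transcript variant had -7.28, -1.07, -3.04 and -2.05 in Nedd9-null and -2.87, -7.59, -6.28 and -5.71 in Nedd9-WT. The same 4 tumours were high on both probes, although probe 1 was not well above background in Nedd9-null replicate 1 and Nedd9-WT replicate 2. The differences were 1.87 (SE 1.29, limma adjusted p = 0.418) on probe 2 and 2.25 (SE 1.48) on probe 1. Without Nedd9-null replicate 1 they were 3.00 (SE 0.95, limma adjusted p = 0.0727) and 3.56 (SE 1.08).

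Tcf4, the E protein that pairs with TWIST factors and is also a regulator of plasmacytoid dendritic cells, had 2.79, 1.29, 1.90 and 1.59 in Nedd9-null and 3.33, 2.98, 1.76 and 2.81 in the Nedd9-WT group on its brighter probe. The groups overlapped through Nedd9-WT replicate 3, which lay below Nedd9-null replicates 1 and 3. The difference was -0.82 (SE 0.43, limma adjusted p = 0.281), and -1.12 (SE 0.38, limma adjusted p = 0.0873) without Nedd9-null replicate 1. The dimmer probe had -2.40, -3.71, -3.75 and -3.69 in Nedd9-null and -2.12, -3.03, -3.60 and -2.41 in Nedd9-WT, a difference of -0.60 (SE 0.43). Nedd9-null replicates 2 to 4 were below all Nedd9-WT tumours on that probe, as they were in 18.1% of all genes.

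Foxc2, a forkhead factor of lymphatic and mesenchymal development, had -4.45, -5.36, -5.89 and -6.08 in Nedd9-null and -4.69, -5.49, -6.65 and -4.23 in the Nedd9-WT group. The spread within each genotype, 1.64 and 2.43 from lowest to highest, was larger than the difference of -0.18 (SE 0.58, limma adjusted p = 0.879). The difference was -0.52 (SE 0.57) without Nedd9-null replicate 1, and it was positive when Nedd9-null replicate 4, Nedd9-WT replicate 1 or Nedd9-WT replicate 4 was left out.

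**Figure D2:**
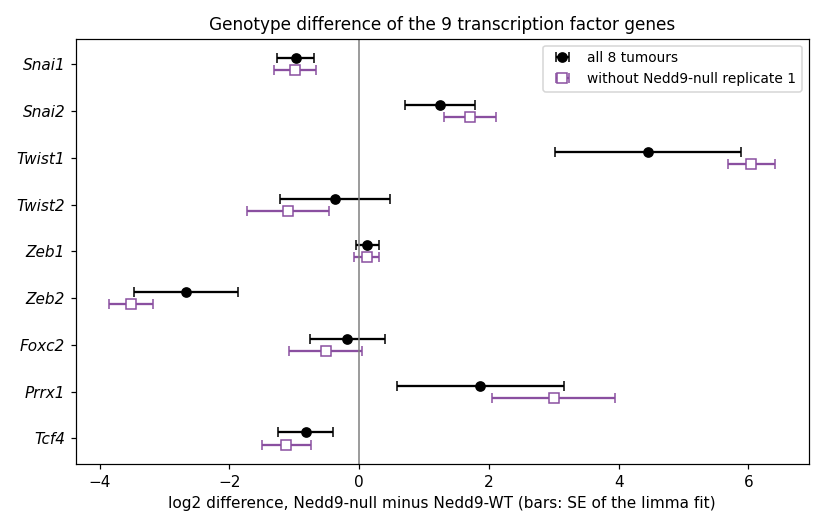
Log2 difference, Nedd9-null minus Nedd9-WT (x axis), of the 9 genes with the SE of the limma fit as bars; black circles use all 8 tumours and open squares leave out Nedd9-null replicate 1. Twist1 moves from 4.45 to 6.05 and Zeb2 from -2.67 to -3.52 with narrower bars, whereas Snai1 (-0.98 and -0.99) and Zeb1 (0.13 and 0.11) stay in place.

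Snai1 and Snai2 thus had differences of opposite sign, although neither passed the threshold with all 8 tumours. Zeb2 had a difference of -2.67 beside 0.13 for Zeb1, whose sign turned when arrays were scaled to their median. To set paralogs side by side, the log2 values of both genes were subtracted within each array and expressed relative to the Nedd9-WT mean. The pairs were chosen after the values had been seen, so the values are a description and no test is given. Snai2 minus Snai1 was 0.80, 2.22, 2.99 and 2.87 in the Nedd9-null group and 0.72, -0.13, -0.85 and 0.26 in the Nedd9-WT group. All 4 Nedd9-null values, replicate 1 included, lay above all Nedd9-WT values, though replicate 1 by a narrow margin. The difference was 2.22, and 2.69 without Nedd9-null replicate 1. Zeb2 minus Zeb1 was -0.28, -2.86, -4.26 and -3.77 in the Nedd9-null group and -0.34, 0.22, 0.07 and 0.05 in the Nedd9-WT group. Here Nedd9-null replicate 1 lay above the lowest Nedd9-WT value, and the difference was -2.79, or -3.63 without that tumour. For Twist1 and Twist2 no such difference is read, since Twist2 did not clear background in Nedd9-null replicates 2 to 4.

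Markers of ciliated oviduct cells were high in the same tumours as Twist1 and Snai2. The 13 tested markers of ciliated oviduct cells, such as the motile cilia regulator Foxj1, all had positive differences. Cfap44, Ccdc113 and Dnah5 cleared background on 1, 2 and 1 of 4 Nedd9-WT arrays. They were tested through the Nedd9-null arrays alone, so their sign was partly set by the filter. The other 10 were well above background on all 8 arrays, a subset formed after the data were seen. With all 8 tumours 0 of the 10 passed, beside 0.0587% of all genes higher. Without Nedd9-null replicate 1 all 10 passed higher, beside 10.3% of all genes. As a mean log2 value set against that of Nedd9-WT, the 10 stood at 4.66, 5.13 and 5.30 in Nedd9-null replicates 2 to 4, the tumours in which Twist1 stood 5.91 to 6.15 above its Nedd9-WT mean. They stood at 1.46 in Nedd9-null replicate 1 and at 1.11 in Nedd9-WT replicate 1, the Nedd9-WT tumour with the highest Twist1, and at -0.45 to -0.25 in the others. Summed over the 13 markers, the linear level relative to the 75th percentile was 10.7 to 148 in the Nedd9-null group and 2.70 to 5.81 in the Nedd9-WT group. Since levels of different probes are not comparable, a sum of this kind is carried by the brightest probes of a list. The part of these cells in the Twist1 and Snai2 values was not tested.

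Granulosa and steroidogenic markers were low in the same tumours as Zeb2. Of the 13 tested, 12 had negative differences. Cyp11a1, Hsd3b1, Amh and Fshr were tested through the Nedd9-WT arrays alone, so their sign was partly set by the filter. The other 9 were well above background on all 8 arrays. Among those 9, 0 passed with all 8 tumours, beside 0.00783% of all genes lower. Without Nedd9-null replicate 1, 5 passed lower, beside 8.36% of all genes. As a mean log2 value set against Nedd9-WT, the 9 stood at -0.76 in Nedd9-null replicate 1 and at -2.86, -4.03 and -4.37 in replicates 2 to 4, against -0.19 to 0.30 in Nedd9-WT. Zeb2 stood at -0.11 in Nedd9-null replicate 1 and at -2.69, -4.16 and -3.70 in the other 3 on that scale. Summed over the 13, the level was 19.0 to 149 in the Nedd9-null group and 130 to 224 in the Nedd9-WT group. Endothelial cells, which also hold Zeb2 and Tcf4 transcripts, had 12 of 13 markers with negative differences (median -0.76), and their summed level was 7.10 to 8.98 in Nedd9-null and 9.70 to 21.7 in Nedd9-WT. In contrast to Zeb2, that list was as low in Nedd9-null replicate 1 (-0.76 relative to the Nedd9-WT mean) as in the other 3 (-0.73 to -0.66). The part of these cells in the Zeb2 and Tcf4 values was not tested.

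**Figure D3:**
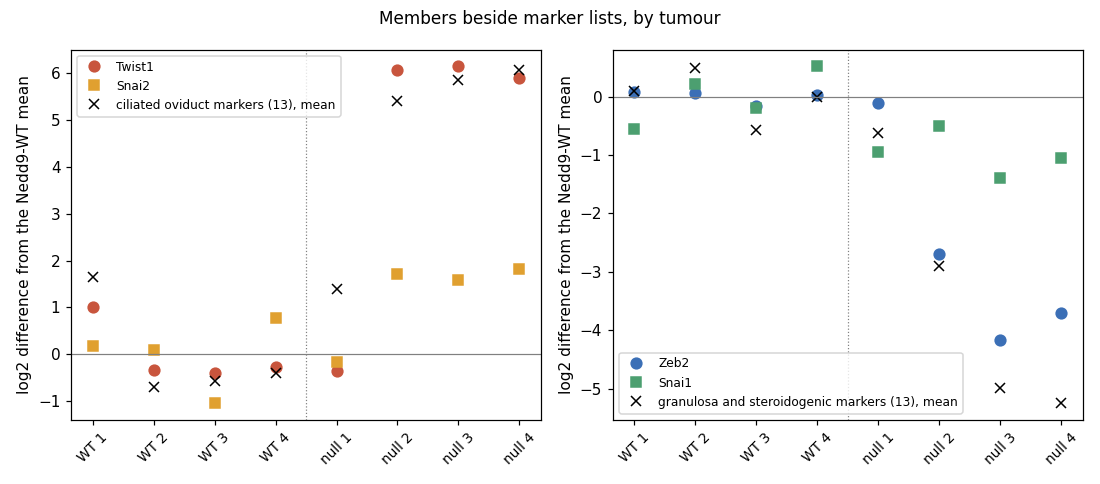
Log2 difference from the Nedd9-WT mean (y axis) by tumour (x axis), for Twist1, Snai2 and the mean of 13 ciliated oviduct markers on the left, and for Zeb2, Snai1 and the mean of 13 granulosa and steroidogenic markers on the right. The lists include markers that did not clear background on some arrays (3 ciliated and 4 granulosa and steroidogenic). Twist1 and the ciliated list are high, and Zeb2 and the granulosa list low, in Nedd9-null replicates 2 to 4, and Snai1 lies at or below -0.51 in all 4 Nedd9-null tumours.

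Fibroblast, macrophage and plasmacytoid dendritic cell markers, further sources of these factors, overlapped between genotypes. Stroma markers had 7 positive and 7 negative differences among 14 (median -0.03), and a summed level of 31.8 to 46.2 in Nedd9-null and 36.4 to 93.6 in Nedd9-WT. Nedd9-WT replicate 1, the Nedd9-WT tumour with the highest Prrx1, had the highest stroma score (1.57 relative to the Nedd9-WT mean), and Nedd9-null replicate 4, the highest in Prrx1 on probe 2, had 0.14. Macrophage markers, which accompany Zeb2 in myeloid cells, had 8 of 12 positive differences. Their summed level was 23.6 to 67.0 in Nedd9-null and 20.5 to 47.9 in Nedd9-WT. The highest sum, in Nedd9-null replicate 1, was carried by Itgam (5.84). Relative to the Nedd9-WT mean, the mean log2 value of that tumour was the lowest of its group (-0.30, others 0.10 to 1.13). Plasmacytoid dendritic cell markers had a median difference of 0.22, with a summed level of 66.8 to 96.2 in Nedd9-null and 61.5 to 83.3 in Nedd9-WT. Here too the highest sum was that of Nedd9-null replicate 1 and was carried by 1 gene, Siglech (6.49). The mean log2 value of this list in that tumour was the lowest of its group (-0.21). Smooth muscle and pericyte markers had a median of 0.01 (summed level 18.5 to 54.9 and 22.4 to 38.8) and lymphocyte markers one of 0.66 (1.70 to 2.55 and 1.39 to 1.84). The part of these cells in the members' values was not tested.

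Close relatives of the members were tested as a list of 9 paralogs and E proteins, of which 8 were bright enough. None passed with all 8 tumours, and 2 passed higher without Nedd9-null replicate 1, where 10.3% of all genes did. The median was 0.34. Of the 8, 5 were well above background on all 8 arrays, and requiring this of every gene gave a median of 0.12. Prrx2, the paralog of Prrx1, differed by 3.99 (SE 1.32, limma adjusted p = 0.135), with 1.02, 0.89 and 1.43 in Nedd9-null replicates 2 to 4, -3.61 in replicate 1 and -6.71 to -2.36 in Nedd9-WT. Foxc1, the paralog of Foxc2, differed by 1.94 (SE 0.86, limma adjusted p = 0.216). Both passed higher without Nedd9-null replicate 1 (5.17 and 2.81, limma adjusted p = 0.0104 and 0.00616), where Foxc2 had -0.52. The heart and limb bHLH factor Hand2 differed by 3.14 (SE 1.35) and the neural SNAI relative Scrt2 by -0.25 (SE 0.18), and neither passed with or without that array. The E proteins Tcf3 and Tcf12 differed by 0.12 (SE 0.20) and -0.48 (SE 0.48).

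The Id proteins, which bind E proteins and keep bHLH factors off DNA, had no member past the threshold either way. Id2 was 1.65 ± 0.33 in Nedd9-null and 0.78 ± 0.34 in the Nedd9-WT group (0.87, SE 0.24, limma adjusted p = 0.106). Id3 differed by -1.55 (SE 0.93), Id4 by -0.23 (SE 0.68) and Id1 by 0.0052 (SE 0.42).

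Other transcription factors linked to EMT included 2 of 17 whose genotypes did not overlap, Tbx2 and Yap1, both higher, beside 7.17% of all genes in that direction. Tbx2, a T-box repressor, was 1.60 ± 0.87 in Nedd9-null and -3.02 ± 1.19 in the Nedd9-WT group (4.62, SE 0.66, limma adjusted p = 0.0597), and Nedd9-null replicate 1 (0.65) lay with its group. The organiser homeobox gene Gsc followed the Twist1 pattern, with -9.60 in Nedd9-null replicate 1, -3.46, -3.30 and -2.60 in replicates 2 to 4 and -10.1 to -7.22 in Nedd9-WT, though its probe cleared background on 3 of 4 and 1 of 4 arrays of these groups. The chromatin factor gene Hmga2 and the homeobox gene Six2 differed by 1.89 (SE 0.59) and 0.61 (SE 0.23). Of the 17 genes, 15 were well above background on all 8 arrays. With all 8 tumours 0 of the 17 passed by limma; leaving out Nedd9-null replicate 1 made it 3 higher and 4 lower, beside 10.3% and 8.36% of all genes.

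Partners of the members' proteins came next. Among 18 corepressors and chromatin partners (SNAI and ZEB proteins recruit CtBP, histone deacetylases, LSD1 and Polycomb), the median difference was -0.04. Prmt5, an arginine methyltransferase, had 1.79, 1.71, 1.82 and 1.82 in Nedd9-null and 1.18, 0.77, 0.44 and 0.86 in the Nedd9-WT group. Its groups did not overlap, yet it did not pass (0.97, SE 0.18, limma adjusted p = 0.0757). The corepressor gene Ncor1 differed by -0.51 (SE 0.17), without overlap, and the Polycomb genes Ezh2 and Suz12 by -0.60 (SE 0.20) and -0.42 (SE 0.18). In all, the genotypes did not overlap in 1 of the 18 higher and 1 lower, beside 7.17% and 5.58% of all genes. Without Nedd9-null replicate 1, Prmt5 passed higher and Ezh2 lower, 1 of 18 each, below the shares of all genes.

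Of 18 regulators of the stability and location of these proteins, such as the kinases and ubiquitin ligases that tag SNAIL for destruction, 14 had negative differences. In 5 the genotypes did not overlap, all lower, against 5.58% of all genes not overlapping in that direction. They were the deubiquitinase gene Usp9x (-1.24, SE 0.26, limma adjusted p = 0.0825), the kinase gene Pak1 (-1.77, SE 0.41), the ubiquitin ligase genes Fbxl14 (-0.53, SE 0.14) and Fbxo11 (-0.60, SE 0.18), and Gsk3a (-0.33, SE 0.14). The first 4 passed lower without Nedd9-null replicate 1, beside 8.36% of all genes, and 0 of the 18 passed with all 8 tumours.

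Upstream inducers, 30 ligands, receptors and signal transducers such as TGF-beta, BMP, WNT and Notch components, had a median of -0.30 and 0 calls with all 8 tumours, and 3 of 30 higher and 4 lower without Nedd9-null replicate 1, where 10.3% and 8.36% of all genes passed. Tgfbr1, the type I TGF-beta receptor gene, had 1.00, -0.76, 0.27 and -0.01 in Nedd9-null and 1.62, 2.19, 1.57 and 1.64 in the Nedd9-WT group, with no overlap (-1.63, SE 0.36, limma adjusted p = 0.0857). The co-receptor gene Tgfbr3 differed by 1.01 (SE 0.31), also without overlap. In all, the genotypes did not overlap in 2 of the 30 higher and 1 lower, beside 7.17% and 5.58% of all genes. Bmp7 and Bmp4 differed by 2.29 (SE 0.64) and 1.37 (SE 0.46).

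The genes that these factors are known to repress or raise did not all differ in one direction either. Of 33 epithelial targets tested, 22 had positive differences (median 0.94). Over the alternatives run, this median ranged from 0.43 (the authors' deposited value table) to 1.18 (Nedd9-null replicate 1 left out). Of the 33, 13 were called higher and 4 lower once Nedd9-null replicate 1 was left out, against 10.3% and 8.36% of all genes. Patj, a polarity gene next to the tight junction genes Cldn4 and Cldn7 in this list, had -0.44, -0.10, -0.11 and -0.32 in Nedd9-null and -1.17, -1.48, -2.14 and -0.91 in the Nedd9-WT group (1.18, SE 0.27, limma adjusted p = 0.0884). Cdh1 itself ranged from -3.61 to -0.94 in Nedd9-null and from -5.70 to 0.11 in the Nedd9-WT group, so its difference of 0.98 (SE 1.29, limma adjusted p = 0.688) was smaller than the spread within either genotype.

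Of 30 mesenchymal targets, 14 had positive and 16 negative differences (median -0.16), and 3 were called higher and 6 lower once Nedd9-null replicate 1 was left out, against 10.3% and 8.36% of all genes. Vim, the gene of the intermediate filament vimentin, had 4.88, 4.59, 4.47 and 4.36 in Nedd9-null and 4.71, 5.25, 6.30 and 5.43 in the Nedd9-WT group. The groups overlapped through Nedd9-null replicate 1 (-0.85, SE 0.33, limma adjusted p = 0.173). The receptor kinase gene Axl had 3.35, 1.79, 1.36 and 1.03 in Nedd9-null and 3.54 to 3.89 in the Nedd9-WT group, with no overlap (-1.86, SE 0.47, limma adjusted p = 0.0957). The 3 tumours with high Twist1 and Snai2 had the lowest Axl, and their Vim was below that of every other tumour. These are 2 genes of a list of 30 with differences of both signs, and they do not stand for the list. In the list the genotypes did not overlap in 1 gene higher and 5 lower, beside 7.17% and 5.58% of all genes.

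**Figure D4:**
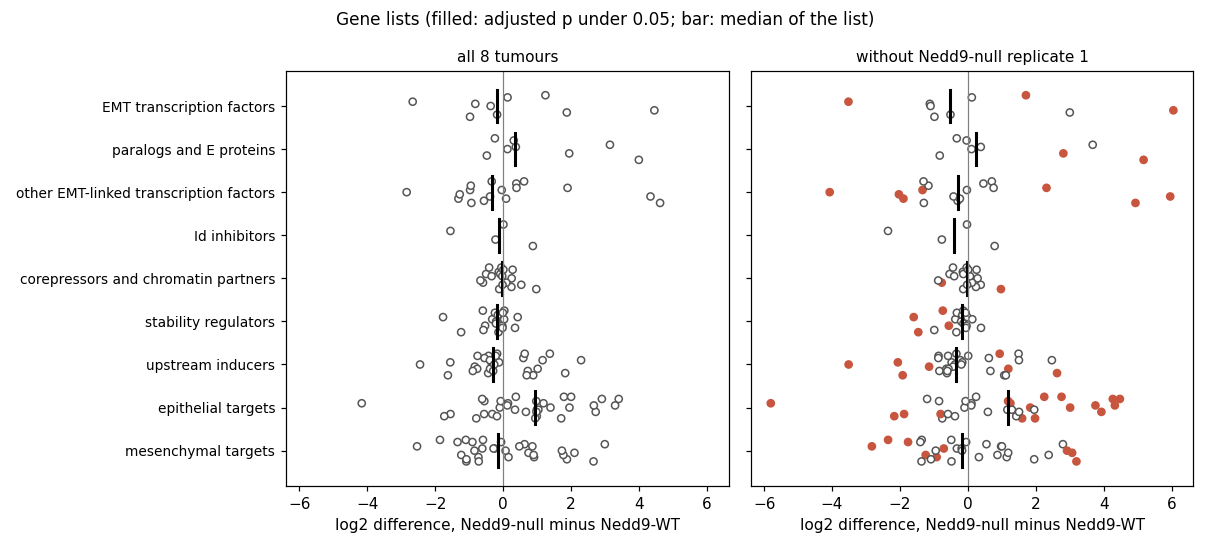
Log2 difference, Nedd9-null minus Nedd9-WT (x axis), of each tested gene of the 9 members and 8 related lists (y axis), with all 8 tumours on the left and without Nedd9-null replicate 1 on the right; filled points passed an adjusted p of 0.05 and bars are list medians. No point is filled on the left, and on the right filled points lie on both sides of 0 in the members and in 5 of the 8 lists.

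For each member, the 3 genes with the nearest profile were found as those with the smallest root mean square difference between log2 values centred on the mean of the 8 arrays. This is a description over 8 tumours that fall into separate groups, and it was not tested. Nearest to Twist1 were Mak, a kinase of cilia and male germ cells (0.28 log2 units), Ak8, an adenylate kinase gene (0.30), and the pyridoxal kinase gene Pdxk (0.33). These distances are small beside the SD of Twist1 itself over the 8 tumours, 3.20. Nearest to Zeb2 (SD 1.85) were Tmem178 (0.27), the netrin gene Ntn4 (0.29) and 3110027N22Rik (0.30). Nearest to Snai1 (SD 0.65) were Tbkbp1 (0.19), the basement membrane collagen gene Col4a2 (0.19) and Cpt1b (0.21). Prrx1 (SD 2.17) had no gene as close, and its nearest were Hoxb4 (0.56), Gm2732 (0.57) and Hoxb6 (0.60). Gchfr was nearest to Snai2 (0.23), Rpe65 to Twist2 (0.30), and Tmem64 was among the 3 nearest to Tcf4 (0.22) and Zfp300 among those to Foxc2 (0.28). Zeb1 was nearly flat (SD 0.21), so that nearness to it says little.

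The start regions of the members were searched for CAGGTG, the E-box that SNAI and ZEB proteins prefer, on both strands (CACCTG on the other), in the 250 bases before each RefSeq start (GRCm38.p6). The windows of 5 members were searched, Snai1, Twist1, Twist2, Zeb2 and Prrx1, and the motif is in 1 of them, Snai1, beside 19.4% of the 27025 genes in the table. Of the 35 epithelial targets fixed, 21 had an entry, and 13 (61.9%) held the motif in at least 1 window. That list was chosen as known targets of these factors, so its share is no independent result. The windows of Snai1, the only member with the motif, and of Twist1, the member with the largest difference, are shown with the E-box in capitals. In Snai1 it begins 126 bases before the start. A match is a sequence description and not a measured binding site, and the Twist1 window is 62.4% G or C, against a median of 52.4% over all windows.
Snai1, chr2:167537945-167538194, plus strand: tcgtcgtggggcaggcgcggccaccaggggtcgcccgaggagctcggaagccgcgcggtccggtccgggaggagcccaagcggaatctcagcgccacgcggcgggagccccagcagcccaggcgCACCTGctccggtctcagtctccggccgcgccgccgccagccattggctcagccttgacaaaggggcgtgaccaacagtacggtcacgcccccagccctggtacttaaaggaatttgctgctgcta
Twist1, chr12:33957421-33957670, plus strand: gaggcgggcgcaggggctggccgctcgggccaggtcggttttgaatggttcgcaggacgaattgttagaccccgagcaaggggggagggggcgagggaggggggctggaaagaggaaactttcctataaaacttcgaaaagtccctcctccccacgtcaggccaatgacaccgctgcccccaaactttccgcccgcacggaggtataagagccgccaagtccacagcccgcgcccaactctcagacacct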

How the data were processed

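RNA of 8 tumours was hybridised in 1 colour (Cy3), and groups and replicate numbers came from the sample titles. Per the file headers, the deposited scanner files hold intensity values from Agilent Feature Extraction (9.5.3 per the submitters' processing notes), after background subtraction and spatial detrending, with no normalization between arrays. The authors' deposited value table holds log2 values with a common median of 8.24 in every column, and its normalization is not given in the sources used here; it served as an alternative.

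Control spots (1377 per array) and outlier spots (194 to 292) were left out, spots of a probe were averaged, and the log2 75th percentile of the array was subtracted from log2 processed intensity. A probe was kept (31800 were) if it cleared background on 3 or more of the 4 arrays of either genotype, and the probe with the highest mean stood for a gene. Names were updated through RefSeq (GRCm38.p6). The comparison used lmFit and eBayes of limma 3.58.1 (R 4.3.3; two-sided) across 25552 genes with Benjamini-Hochberg adjustment; each probe of the members was also fitted separately, among all kept probes. The fit was run on simulated data with known changes that were equal in all 4 Nedd9-null arrays. Those data held no tumour apart from its group, so that case was not covered. Nothing says whether the mice shared litters or dates, so p-values measure the spread between these tumours.

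The members and lists were chosen with earlier results of these data known. Named genes were the members, the 4 genes of each related list with the smallest p, Cdh1, Cdh2 and Vim, and the 3 nearest profiles; which of these were printed, and Yap1, Gsk3a, Tcf3 and Tcf12, was decided after values were seen. Outlying tumours were looked for in the 12 probes and 17 list scores. Alternatives were another background correction, scaling, value source, probe rule, filter or variance prior, the replicate number as a block, and each array left out.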

Additional observations from a re-analysis of the deposited data

Results flagged for a closer look

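In each genotype of 4 tumours, a tumour was singled out when its gap to the nearest other, as a share of the group's range, exceeded Dixon's critical value. This was looked for in 58 groups, 24 of them member probes and the rest list scores, and 8 exceeded it; chance gives about 1 in 20. Of these, 4 concern members. Nedd9-null replicate 1 stood apart in Snai2 (-2.19, others -0.44 to -0.22), in Twist1 (-6.13, others 0.12 to 0.37) and in the dimmer Tcf4 probe (-2.40, others -3.75 to -3.69). Nedd9-WT replicate 1 stood apart in Twist1 (-4.77, others -6.19 to -6.06). Among list scores, relative to the Nedd9-WT mean, the ciliated oviduct markers gave the same 2 tumours: Nedd9-null replicate 1 at 1.40 (others 5.42 to 6.08) and Nedd9-WT replicate 1 at 1.66 (others -0.69 to -0.40). That score includes 3 markers that did not clear background on every array. Nedd9-WT replicate 3 was low in smooth muscle and pericyte markers (-1.97, others 0.42 to 0.81), and Nedd9-WT replicate 4 was high in endothelial markers (0.82, others -0.38 to -0.19).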

How the results depend on the processing

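Snai1, Prrx1 and Tcf4 kept their direction and stayed short of the threshold under all 18 alternatives run. Leaving out each array in turn gave 0.89 to 1.71 for Snai2, 3.88 to 6.05 for Twist1, -1.10 to 0.055 for Twist2, -3.52 to -2.17 for Zeb2 and -0.64 to 0.16 for Foxc2; the highest Snai2 and Twist1 values and the lowest Zeb2 value, all without Nedd9-null replicate 1, passed. Foxc2 was also above 0 at 0.031 and 0.0088 without Nedd9-null replicate 4 and Nedd9-WT replicate 1. Twist1 was below its range over arrays left out under normexp background correction (3.66) and in the deposited value table (3.75). With arrays left out in turn, the paralog differences, given without a test, ranged from 1.94 to 2.69 (Snai2 minus Snai1), -3.63 to -2.30 (Zeb2 minus Zeb1) and, with Twist2 below background on 4 arrays, 3.82 to 7.15 (Twist1 minus Twist2). Calls ranged from 0 to 2 for members higher, 0 to 1 for members lower, 0 to 4772 for all genes, 0 to 2 for paralogs and E proteins, 0 to 7 for other EMT-linked factors, 0 to 2 for corepressors, 0 to 4 for stability regulators, 0 to 7 for upstream inducers, 0 to 17 for epithelial and 0 to 9 for mesenchymal targets. Each maximum was reached without Nedd9-null replicate 1. Scaling to the median moved the median difference of all genes from 0.029 to -0.16, Zeb1 to -0.064 and the corepressor median to -0.23, and left 4 genes called (2 higher, 2 lower). Quantile normalization also left 4 (3 higher, 1 lower), requiring signal above background on all 8 arrays left 7 (5 higher, 2 lower), and the deposited value table gave 14 higher and 5 lower. Normexp background correction called 1 other EMT-linked factor. Snai2 minus Snai1 and Zeb2 minus Zeb1 were 2.17 and -2.71 under normexp, and close to that in the deposited value table (2.26 and -2.81) and with kept probes averaged (2.22 and -2.62). The cause of these changes was not tested. With the replicate number as a block, 0 genes and 0 members were called. The labels do not say whether the numbers pair the tumours. Correlations of deviations between same-numbered tumours were -0.23 to -0.04, and 0 Nedd9-null arrays correlated best with their own number. With 4 such pairs, these values cannot decide whether the tumours were paired. Dim probes limit Twist2 and Prrx1 probe 1, which were not above background on every array.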
